A study of Mus musculus with 2 samples.

Results

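The 41 genes described here are interferon response genes, chosen by symbol as genes that type I or type II interferon is known to induce and measured in lineage-depleted bone marrow of Nat10 cKO and WT mice. All 41 symbols were found among the 56748 features of the deposited matrices. By known role they comprised 8 sensors of foreign or double-stranded nucleic acid, 3 transcription factors, 5 genes of the ISG15 and ubiquitin system, 8 antiviral effectors, 7 interferon-inducible GTPases and 10 other induced genes.

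Interferons bind receptors that signal through the Jak kinases to a complex that holds STAT2 and IRF9 and binds the interferon-stimulated response element in the promoters of target genes. Many of the targets are themselves sensors and transcription factors of the pathway, so cells keep a basal level of them without infection. In bone marrow, haematopoietic stem cells carry interferon receptors and leave quiescence when interferon is given, and stem cells of several species express a set of such genes without any stimulus.

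The Nat10 cKO group came from C57BL/6 mice with a conditional knockout of Nat10, the enzyme that writes N4-acetylcytidine on RNA, and the WT group from C57BL/6 wild-type mice. The labels used here give neither the Cre driver, the deleted part of the gene nor the age of the animals. Cells of both groups were bone marrow cells left after antibody depletion of mature lineages, and each group was 1 droplet-based 3′ single-cell library. The design text speaks of several independent mice of each genotype, but nothing maps a cell to a mouse.

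The cKO library held 13479 barcodes, of which 10700 were kept with 254110299 UMIs and a median of 21456 UMIs per cell. The WT library held 15848 barcodes, of which 11900 were kept with 262018482 UMIs and a median of 18371.5 UMIs per cell. The libraries shared 67 barcode sequences among all barcodes and 37 among the kept cells. Although depleted of mature lineages, both libraries held cells with markers of them, such as 563 cKO and 412 WT cells resembling T, NK and innate lymphoid cells. Nat10 itself was at 38.7 CPM in cKO cells and 47.1 CPM in WT cells, a log2 ratio of -0.28. Since the deleted part is not named, a 3′ count does not test the knockout. With 1 library per genotype there are no replicates and no test. Every interval below is an exact 95% interval that covers counting error only, and a difference here is one between these 2 libraries. CPM stands for UMIs of a gene per 1000000 UMIs of the same population, and a log2 ratio is cKO over WT. A gene is called measured in a population when it had at least 50 UMIs in both libraries together.

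The promoters of these genes were examined first, because they hold the sequence that this complex recognises. RefSeq promoters of the GRCm38.p6 assembly, 250 bases before to 50 bases after each start, were matched by symbol for 34 of the 41 genes. The files themselves use mm39, so no coordinate was carried over. The core searched was GAAA, any 2 bases, GAAA, on either strand. It was present in 19 of the 34 matched genes (55.9%), against 1079 of all 27025 genes in the table (3.99%) and 3.44% of all promoters of the same length. The sequences below are 70-base stretches read 5′ to 3′ along the gene, with the bases of each core match in capitals. They are shown for the sensor and the effector with the lowest ratio over all cells, the ISG15 gene and a factor of the complex. Also shown are the effector that stood higher and a Schlafen gene that was far lower in cKO cells resembling stem cells and multipotent progenitors.
Ddx60 (chr8:61928021-61928090, + strand): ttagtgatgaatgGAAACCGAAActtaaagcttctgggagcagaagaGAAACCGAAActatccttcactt
Rsad2 (chr12:26456533-26456602, - strand): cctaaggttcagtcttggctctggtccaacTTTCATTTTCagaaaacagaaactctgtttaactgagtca
Isg15 (chr4:156200851-156200920, - strand): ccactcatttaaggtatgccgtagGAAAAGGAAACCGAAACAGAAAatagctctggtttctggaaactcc
Bst2 (chr8:71537560-71537629, - strand): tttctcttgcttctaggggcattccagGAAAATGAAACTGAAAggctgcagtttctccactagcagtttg
Stat2 (chr10:128270248-128270317, + strand): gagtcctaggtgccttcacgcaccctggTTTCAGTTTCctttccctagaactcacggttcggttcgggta
Slfn5 (chr11:82951917-82951986, + strand): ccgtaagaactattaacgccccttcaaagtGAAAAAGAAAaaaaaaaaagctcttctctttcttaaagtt
Ddx60 held 2 separate copies, Isg15 held 3 overlapping ones, and Bst2 held 2 that share 4 bases.

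The 19 genes had 20 promoters with the core, since Trim30a was listed with 2 start sites, and from these starts there were 30 matches, of which 24 began before the start site and 16 of those within 100 bases of it. The first base of a match lay between 222 bases before and 32 bases after the start, with a median at -49. The core was common among sensors (5 of 6 matched) and GTPases (5 of 6), and was found in 5 of 8 effectors, 2 of 4 ISG15 and ubiquitin genes, 1 of 3 transcription factors and 1 of 7 other induced genes. The gamma-activated site core, TTC, any 3 bases, GAA, was present in 8 of the 34 genes (23.5%), against 9.55% of all genes and 8.30% of all promoters. Eif2ak2, Oas1a, Bst2, Ifitm3, Gbp7 and Igtp held both cores. A match describes letters in a window and is no evidence of binding.

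**Figure D1:**
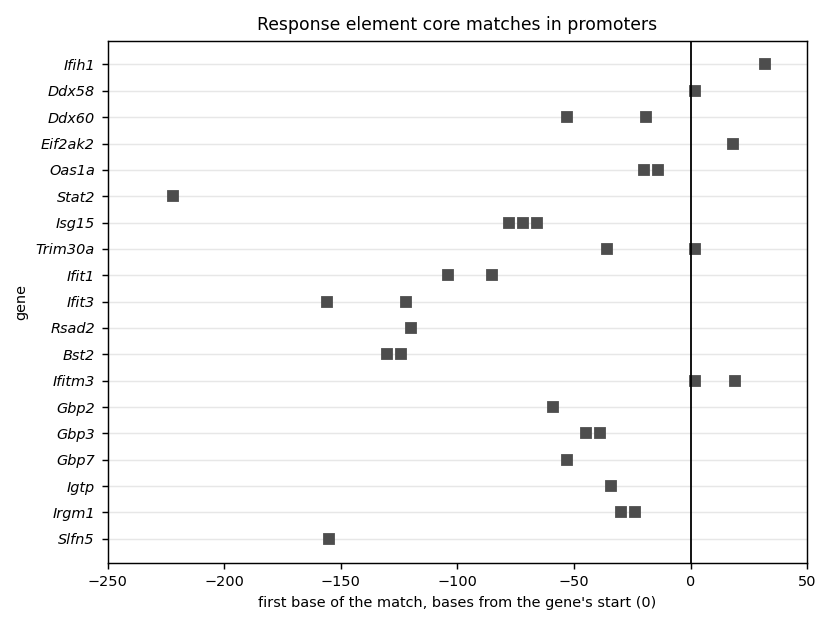
Position of each response element core match in the promoters of the 19 genes that held one, in bases from the start site (vertical line at 0). Each square is the first base of 1 match. Of the 30 matches, 24 lie before the start, and those of Stat2, Slfn5, Ifit3 and Bst2 lie farthest upstream.

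Over all kept cells the interferon response genes stood lower in the cKO library almost throughout. Of the 41 genes, 39 had a lower level in cKO than in WT cells, with every one of these 39 intervals below 0, and 16 were lower by at least 1.5-fold against 13.1% of all 21247 measured genes. No member was higher by at least 1.5-fold. The median log2 ratio of the 41 was -0.48, against -0.10 for all measured genes, of which 61.3% were lower. In each role the median was below 0. It was -0.63 for sensors, -0.43 for transcription factors, -0.34 for the ISG15 and ubiquitin system, -0.47 for effectors, -0.38 for GTPases and -0.83 for the other induced genes. When every cell weighed alike, the median of the 41 was -0.32, and the medians were -0.22 for the ISG15 and ubiquitin system, -0.30 for effectors, -0.096 for GTPases and -0.32 for the other induced genes. That of the ISG15 and ubiquitin system was -0.66 without cells holding a macrophage marker. The summed level of the 41 was 695 CPM in cKO cells and 973 CPM in WT cells, a log2 ratio of -0.49. The make-up of the libraries differed, with erythroid progenitor-like cells at 41.7% of cKO and 24.4% of WT cells and macrophage-like cells at 0.178% of cKO and 1.28% of WT cells. With the cKO clusters weighted to the shares they had in WT, the ratio of the sum was -0.28 and the median of the other induced genes -0.44.

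The gene with the lowest ratio over all cells was Ifi27l2a, a small interferon-induced membrane protein, at 4.64 CPM in cKO cells and 15.5 CPM in WT cells, a log2 ratio of -1.74. Its WT level was highest in conventional dendritic-like cells, which were 1.60% of cKO and 3.91% of WT cells. There it was at 122 CPM in cKO and 196 CPM in WT cells. Its ratio was -1.10 in monocyte-like and -1.94 in erythroid progenitor-like cells. The part of cell make-up in the ratio over all cells was not tested. Among sensors Ddx60, a helicase that supports RIG-I signalling, was at 3.46 CPM in cKO cells and 7.92 CPM in WT cells (log2 ratio -1.19). Eif2ak2, which encodes the double-stranded RNA kinase PKR, was the least different sensor, with 53.5 CPM in cKO and 65.6 CPM in WT cells (-0.29). Trim30a, a TRIM-family protein, was at 22.7 CPM in cKO cells and 48.1 CPM in WT cells (-1.08). Rsad2, which encodes the antiviral enzyme viperin, was at 6.08 CPM in cKO cells and 12.1 CPM in WT cells (-0.99), and Gbp3, a guanylate-binding protein, at 8.34 CPM in cKO and 16.2 CPM in WT cells (-0.95). Ddx60, Trim30a, Rsad2 and Gbp3, with ratios between -1.19 and -0.95, were named because each was the lowest of its role. Their closeness therefore does not compare the 4 roles.

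The median of the transcription factors, at -0.43, lay between those of the other roles. Irf7, Irf9 and Stat2 had log2 ratios of -0.56, -0.43 and -0.28 over all cells, each with an interval below 0. A few genes stood level or higher. Bst2, which encodes the virion-retaining protein tetherin, was at 64.2 CPM in cKO cells and 67.5 CPM in WT cells (-0.07). Ifi35, a partner of the factor Nmi, had a ratio of -0.11. Isg15, the ubiquitin-like modifier, was at 11.5 CPM in cKO and 10.7 CPM in WT cells (0.10, interval 0.02 to 0.17), and the GTPase gene Iigp1 at 3.38 CPM in cKO and 2.95 CPM in WT cells (0.20, interval 0.05 to 0.34). With the cKO clusters weighted to the shares they had in WT, the ratios of Isg15, Iigp1 and Bst2 were -0.15, -0.095 and 0.12. Near-identical copies of the Ifit, Oas, Gbp, Schlafen, Trim30 and immunity-related GTPase genes can split or lose reads in counting, so their absolute levels are uncertain.

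**Figure D2:**
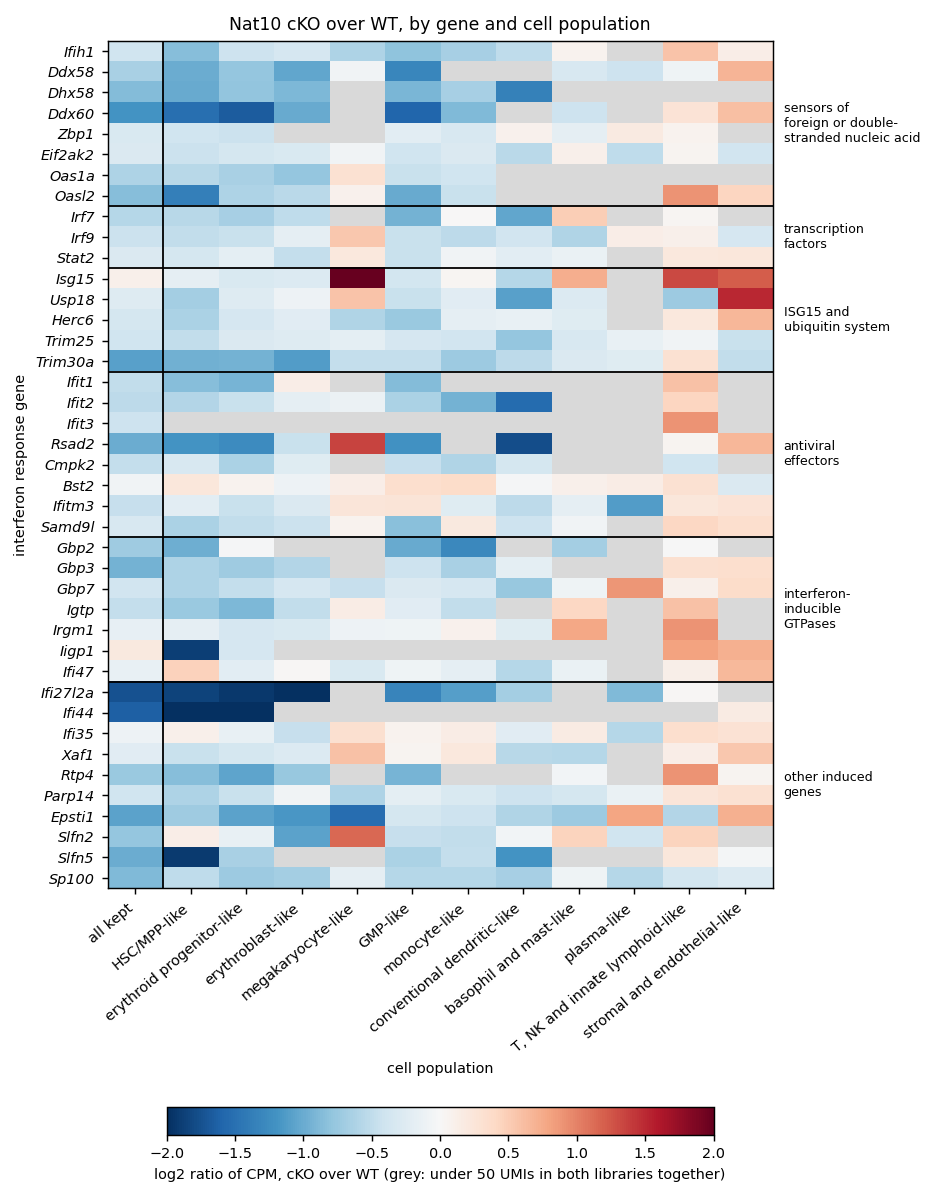
Log2 ratio of CPM, cKO over WT, for the 41 genes (rows, grouped by role) in all kept cells and in 11 cell classes (columns). Blue is lower and red higher in the cKO library, grey marks fewer than 50 UMIs in both libraries together, and the scale ends at 2 in either direction (Isg15 in megakaryocyte-like cells, at 4.74, lies beyond it). Blue prevails from HSC/MPP-like to conventional dendritic-like cells except in megakaryocyte-like cells, and red in the T, NK and innate lymphoid-like and the stromal and endothelial-like columns.

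The cells were clustered without the interferon genes, so that the classes compared were not drawn by them, and clusters were named from marker genes. In cells resembling haematopoietic stem cells and multipotent progenitors (HSC/MPP-like; 717 cKO and 1163 WT cells), 36 of 40 measured genes were lower in cKO, and the intervals of 33 lay below 0. Lower by at least 1.5-fold were 22 of the 40 (55.0%), against 13.8% of all genes measured in these cells. The median log2 ratio was -0.62, against -0.16 for all genes. Their summed level was 968 CPM in cKO cells and 1301 CPM in WT cells (log2 ratio -0.43, and -0.26 under TMM scaling). The class lay in partly different clusters in each library. A cluster led by Mecom and Hlf held 115 of its cKO and 422 of its WT cells, and one led by Cd34 and Egln3 held 107 cKO and 25 WT cells. The markers that named the class were themselves lower in cKO, at 3220 CPM in cKO and 4748 CPM in WT cells with 12 of 13 lower, and megakaryocyte markers were at 156 CPM in cKO and 380 CPM in WT cells, with 9 of 9 measured ones lower and none of the 11 at 0. Markers of granulocyte and monocyte progenitors were at 3751 CPM in cKO and 3607 CPM in WT cells, with 5 of 9 measured ones lower. The part of these differences in the result was not tested. Only 3 HSC/MPP-like clusters had at least 50 cells in each library, and the others gave no ratio. Of these 3, the cluster with 263 cKO and 339 WT cells had no marker of the class among its leading genes. In each of the 3 the summed level was lower in cKO, with log2 ratios between -0.35 and -0.19. Values of this kind cannot tell less RNA per cell from fewer cells of a kind that expresses the genes.

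All 8 sensors were lower in cKO HSC/MPP-like cells, with a median of -0.92. Ddx60 was at 7.99 CPM in cKO cells and 22.9 CPM in WT cells (log2 ratio -1.51, interval -1.79 to -1.25). Oasl2, an oligoadenylate synthetase-like protein, was at 6.63 CPM in cKO cells and 17.1 CPM in WT cells (-1.36). The 3 RIG-I-like receptor genes were lower as well. Ifih1, which encodes MDA5, was at 19.2 CPM in cKO and 34.7 CPM in WT cells (-0.85). Ddx58, which encodes RIG-I, was at 14.2 CPM in cKO and 28.3 CPM in WT cells (-0.99), and Dhx58, which encodes their regulator LGP2, at 4.14 CPM in cKO and 8.36 CPM in WT cells (-1.01). Zbp1, a sensor of Z-form nucleic acid, gave the weakest ratio at -0.40 with an interval of -0.98 to 0.15, which spans 0. Each of the other 7 sensors had an interval below 0.

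All 3 transcription factors were lower and none reached 1.5-fold, with a median of -0.50, which was -0.33 under TMM scaling. Irf7, the amplifier of the type I response, was at 3.85 CPM in cKO HSC/MPP-like cells and 5.67 CPM in WT ones (-0.55, with an interval below 0). Irf9, the DNA-binding partner of STAT2, was at 20.1 CPM in cKO and 28.3 CPM in WT cells (-0.50). Stat2 was at 13.3 CPM in cKO and 16.9 CPM in WT cells (-0.35, interval -0.58 to -0.11).

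Of the ISG15 and ubiquitin genes all 5 were lower, with a median of -0.64, which was -0.40 with WT cluster shares. Trim30a was at 33.7 CPM in cKO cells and 65.7 CPM in WT cells (-0.96). Herc6, the ligase that attaches ISG15 in mice, was at 14.5 CPM in cKO cells and 22.5 CPM in WT cells (-0.64), and Usp18, which removes it, at 4.14 CPM in cKO and 6.66 CPM in WT cells (-0.68). Isg15 itself could not be told from WT at this depth, with 8.56 CPM in cKO and 9.69 CPM in WT cells (-0.18, interval -0.48 to 0.12).

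Among effectors 6 of 7 measured genes were lower, with a median of -0.58, which was -0.26 without cells holding a macrophage marker. Rsad2 was at 3.91 CPM in cKO HSC/MPP-like cells and 9.02 CPM in WT ones (-1.20), and Ifit1, which binds foreign RNA, at 2.32 CPM in cKO and 4.22 CPM in WT cells (-0.85). Ifit3 had 7 UMIs in cKO cells and 16 in WT cells and was not measured. Ifitm3, which blocks viral entry, was the most abundant of the 41 genes here, at 281.6 CPM in cKO cells and 327 CPM in WT cells (-0.22), and made up 29.1% of the summed level in cKO cells and 25.1% in WT cells. Without Ifitm3 the summed level had a log2 ratio of -0.50. Bst2 was the one effector higher in cKO, at 77.3 CPM in cKO and 66.0 CPM in WT cells (0.23, interval 0.12 to 0.33).

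The GTPases split in the same way, with 6 of 7 lower and 5 lower by at least 1.5-fold. Iigp1 was at 2.21 CPM in cKO HSC/MPP-like cells and 8.28 CPM in WT ones (-1.89, interval -2.44 to -1.41), on 39 UMIs in cKO and 210 in WT cells. Gbp2 was at 5.67 CPM in cKO cells and 11.2 CPM in WT cells (-0.97). Ifi47 ran the other way, at 53.4 CPM in cKO and 38.9 CPM in WT cells (0.46, interval 0.33 to 0.59).

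Of the 10 other induced genes 8 were lower, and several were far lower. Ifi44, a cytoplasmic interferon-induced protein, was at 1.70 CPM in cKO HSC/MPP-like cells and 7.01 CPM in WT ones (-2.02, interval -2.65 to -1.48). Slfn5, a Schlafen-family nuclear protein, was at 1.25 CPM in cKO and 4.81 CPM in WT cells (-1.92), and Ifi27l2a at 3.29 CPM in cKO and 12.0 CPM in WT cells (-1.86). Sp100, a nuclear body component, and Epsti1, both abundant, were less far apart. Sp100 was at 65.2 CPM in cKO and 93.2 CPM in WT cells (-0.52), and Epsti1 at 55.5 CPM in cKO and 90.5 CPM in WT cells (-0.71). Slfn2, a Schlafen gene needed for quiescence of T cells and monocytes, and Ifi35 had ratios of 0.13 and 0.10 with intervals that span 0.

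**Figure D3:**
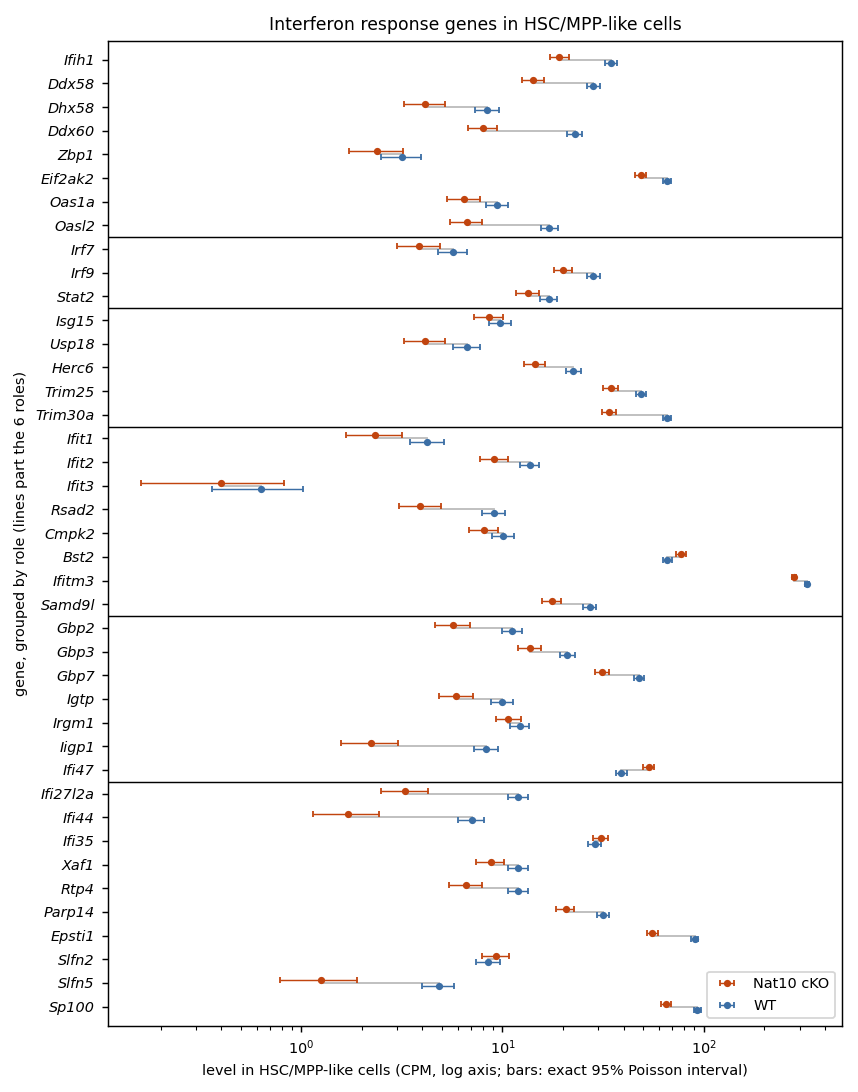
Level of each of the 41 genes in HSC/MPP-like cells of the cKO library (orange) and the WT library (blue), in CPM on a log axis, with exact 95% Poisson intervals of counting error. Most orange points lie left of the blue ones; Bst2, Ifi47, Ifi35 and Slfn2 are the measured exceptions.

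Whether a promoter held the response element core separated the genes little. Over all kept cells the median log2 ratio was -0.48 for the 19 genes with the core and -0.48 for the 15 matched genes without it. In HSC/MPP-like cells it was -0.69 for 18 measured genes with the core, of which 17 were lower in cKO, and -0.52 for 15 without, of which 12 were lower. Ddx60, with 2 cores, was among the lowest genes, and Isg15, with 3, among those that differed least.

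In the erythroid lineage the genes were lower too. In erythroid progenitor-like cells (4464 cKO and 2900 WT cells) 39 of 40 measured genes were lower in cKO, 18 of them by at least 1.5-fold against 7.02% of all genes, and the median was -0.46 against -0.10. Ifi44 was at 0.356 CPM in cKO and 1.42 CPM in WT cells (-1.99) and Ifi27l2a at 0.274 CPM in cKO and 1.06 CPM in WT cells (-1.94). Gbp2 (-0.03) and Bst2 (0.07, and -0.019 with called doublets kept) stood at the other end. In erythroblast-like cells (983 cKO and 1362 WT cells) 33 of 35 were lower, 11 of them by at least 1.5-fold against 4.87% of all genes, with a median of -0.43 against -0.04, and of -0.21 without cells holding a macrophage marker. Ifi27l2a had 6 UMIs in cKO and 45 in WT cells (-2.02), and Epsti1 16 in cKO and 63 in WT cells (-1.16). Ifi47 and Ifit1, at 0.02 and 0.14, had intervals that span 0. Cmpk2, a nucleotide kinase gene beside Rsad2, had its highest WT level in erythroblast-like cells, at 44.7 CPM. Isg15 was at 28.1 CPM in WT erythroblast-like cells, which overlapped its level in WT macrophage-like cells within counting error. In all 8 erythroid progenitor-like clusters and all 3 erythroblast-like clusters with enough cells the summed level was lower in cKO. Monocyte markers were at 33.3 CPM in cKO and 66.0 CPM in WT erythroid progenitor-like cells, with 10 of 10 lower. In erythroblast-like cells they were at 32.3 CPM in cKO and 63.5 CPM in WT, with 8 of 9 measured ones lower. Markers of granulocyte and monocyte progenitors were lower in both classes (10 of 10 and 8 of 8 measured). Stromal and endothelial markers went the other way, with 1 of 10 and 1 of 6 measured ones lower. The part of these in the result was not tested.

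In the myeloid classes most genes were again lower. In cells resembling granulocyte and monocyte progenitors (GMP-like; 1159 cKO and 1308 WT cells) 34 of 38 measured genes were lower, 15 of them by at least 1.5-fold against 9.63% of all genes, with a median of -0.45 against -0.14. Ddx60 was at 1.66 CPM in cKO and 4.98 CPM in WT cells (-1.58), and Ifi27l2a at 1.22 CPM in cKO and 3.07 CPM in WT cells (-1.33). Bst2, at 107 CPM in cKO and 84.7 CPM in WT cells (0.33), and Ifitm3, at 172 CPM in cKO and 143 CPM in WT cells (0.26), were higher. Without cells that hold a macrophage marker the Ifitm3 ratio was -0.076. The summed level was 657 CPM in cKO and 734 CPM in WT GMP-like cells (-0.16, and -0.049 under TMM scaling). GMP markers were at 23399 CPM in cKO and 29312 CPM in WT cells, with 9 of 10 lower. Neutrophil markers were at 605 CPM in cKO and 1595 CPM in WT cells, with 5 of 7 measured ones lower. Erythroid progenitor markers went the other way, with 1 of 11 lower. A cluster led by Fcnb held 85 cKO and 305 WT cells, and one led by Prtn3 and Dmkn 146 cKO and 31 WT cells. Their part in the result was not tested.

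In monocyte-like cells (653 cKO and 1055 WT cells) 27 of 34 were lower, 9 of them by at least 1.5-fold against 6.63% of all genes, with a median of -0.39 against -0.06, and of -0.21 with WT cluster shares. Gbp2, a guanylate-binding protein, was at 2.16 CPM in cKO and 5.33 CPM in WT cells (-1.29), and Ifi27l2a at 15.3 CPM in cKO and 32.9 CPM in WT cells (-1.10). Bst2 was again higher, at 137 CPM in cKO and 106 CPM in WT cells (0.37), and Xaf1, a pro-apoptotic protein, had a ratio of 0.21 with an interval of -0.15 to 0.56. The markers of the class were at 3688 CPM in cKO and 5580 CPM in WT cells, with 8 of 10 lower. GMP markers were at 7276 CPM in cKO and 11764 CPM in WT cells, with 10 of 10 lower. Erythroid progenitor markers went the other way, with 0 of 11 lower. A cluster led by Fn1 and Lyz2 held 42 cKO and 225 WT cells, and one led by Ms4a6c and Met 86 cKO and 10 WT cells. The part of these in the result was not tested. In conventional dendritic-like cells (171 cKO and 465 WT cells), where WT levels were among the highest, 29 of 30 were lower, 11 of them by at least 1.5-fold against 6.18% of all genes, with a median of -0.53 against -0.05. Rsad2 had 5 UMIs in cKO and 52 in WT dendritic-like cells (-1.77), and Ifit2, a relative of Ifit1, 11 in cKO and 93 in WT cells (-1.54). Bst2 and Zbp1, at -0.03 and 0.08, had intervals that span 0. The summed level was 2059 CPM in cKO and 2866 CPM in WT dendritic-like cells. The class gave no median under the other clusterings tried, nor with called doublets kept, so these values rest on 1 clustering. Monocyte markers in the class were at 4335 CPM in cKO and 4911 CPM in WT cells, with 9 of 10 lower. Its own dendritic markers were at 3365 CPM in cKO and 2327 CPM in WT cells, with 4 of 11 lower. The part of these in the result was not tested.

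In basophil and mast-like cells (458 cKO and 443 WT cells) the libraries differed little. Lower in cKO were 19 of 28 genes, 3 of them by at least 1.5-fold against 3.86% of all genes, with a median of -0.13, which was -0.41 with called doublets kept. Epsti1 (-0.72) and Gbp2 (-0.67) were the lowest, and Isg15 (0.72) and Irgm1, a GTPase of autophagy (0.78), the highest. With called doublets kept the Isg15 ratio there was -0.15. In plasma-like cells (118 cKO and 143 WT cells) 10 of 15 were lower, 2 of them by at least 1.5-fold against 16.4% of all genes, with a median of -0.24 against -0.19, and of -0.022 under TMM scaling. Ifitm3 (-1.11) and Ifi27l2a (-0.88) were the lowest there, and Epsti1 (0.78) and Gbp7 (0.88) the highest. Epsti1 was at -0.86 without cells holding a macrophage marker, and Ifi27l2a at 0.19 with every cell weighing alike. The plasma-like cells had a median of 16150 UMIs in cKO and 1934 UMIs in WT, a gap in depth that no value here removes. Their GMP markers were at 589 CPM in cKO and 7000.2 CPM in WT cells, with 7 of 7 measured ones lower and 1 of 10 at 0 in cKO, and their neutrophil markers at 23.9 CPM in cKO and 483 CPM in WT cells, with 3 of 3 measured ones lower and 4 of 10 at 0 in cKO. Monocyte markers were at 856 CPM in cKO and 1812 CPM in WT cells, with 6 of 6 measured ones lower and Fn1 at 0 in cKO. The part of these in the plasma-like values was not tested.

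**Figure D4:**
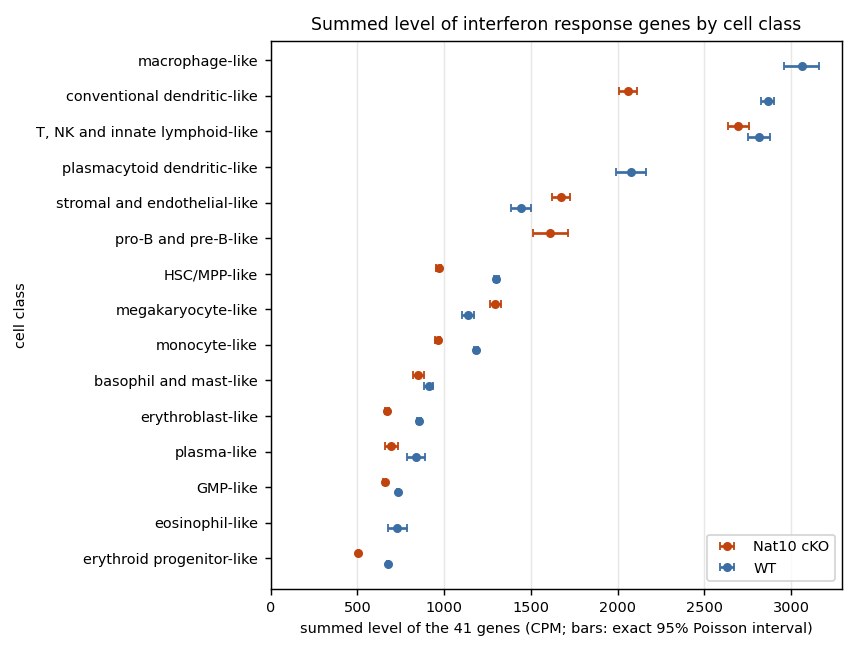
Summed level of the 41 genes in CPM in each cell class with at least 50 cells, for the cKO library (orange) and the WT library (blue), with exact 95% Poisson intervals of counting error. Macrophage-, plasmacytoid dendritic- and eosinophil-like cells are shown for WT alone and pro-B and pre-B-like cells for cKO alone, because the other library had fewer than 50. The cKO point lies left of the WT point except in megakaryocyte-like and in stromal and endothelial-like cells.

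Other classes did not show lower levels of most of the genes. In T, NK and innate lymphoid-like cells (563 cKO and 412 WT cells) 7 of 38 measured genes were lower in cKO. Lower by at least 1.5-fold were 2 against 4.91% of all genes, and higher by at least 1.5-fold were 8 against 8.26% of all genes. The median was 0.23, against 0.03 for all genes, and 0.14 relative to genes of like span. In the 3 clusters with enough cells it lay between 0.07 and 0.20. The genes lower by that margin were Epsti1, the most abundant of the 41 in these cells, at 595 CPM in cKO and 898 CPM in WT cells (-0.59), and Usp18, at 16.01 CPM in cKO and 26.6 CPM in WT cells (-0.73). Isg15 was at 28.5 CPM in cKO and 11.2 CPM in WT cells (1.33, with an interval that begins at 0.72), and Ifit3 at 12.1 CPM in cKO and 6.36 CPM in WT cells (0.91, interval 0.05 to 1.86). The summed level was 2694 CPM in cKO and 2815 CPM in WT cells (-0.06). Its ratio was 0.13 without Epsti1 and 0.10 with WT cluster shares. A cluster led by Ccl5 held 126 cKO and 212 WT cells, and another, with Gata3 and Il2ra among its leading genes, 122 cKO and 27 WT cells. Conventional dendritic markers in the class were at 397 CPM in cKO and 126 CPM in WT cells, with 1 of 6 measured ones lower. Monocyte markers were at 611 CPM in cKO and 781 CPM in WT cells, with 4 of 6 lower. The part of these in the result was not tested.

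In stromal and endothelial-like cells (375 cKO and 214 WT cells) 7 of 28 genes were lower, 0 of them by at least 1.5-fold against 7.2% of all genes, and 9 were higher by at least 1.5-fold against 7.63% of all genes. The median was 0.32, against 0.00 for all genes, and 0.096 with a floor of 200 UMIs. In the 2 clusters with enough cells it was smaller. In the cluster of 199 cKO and 77 WT cells the median was 0.09, with 8 of 19 genes lower and a summed ratio of 0.0096, and in that of 110 cKO and 106 WT cells the median was 0.15 over 4 genes. GMP markers in the class were at 832 CPM in cKO and 2114 CPM in WT cells, with 6 of 6 measured ones lower, and monocyte markers at 272 CPM in cKO and 679 CPM in WT cells, with 6 of 7 lower and none of either list at 0. Their part in the result was not tested. Usp18, at 17.8 CPM in cKO and 6.03 CPM in WT cells (1.51), and Isg15, at 27.1 CPM in cKO and 11.5 CPM in WT cells (1.21), were the highest, and Trim30a (-0.49) and Trim25, a ligase that activates RIG-I (-0.44), the lowest. Iigp1, whose WT level was highest in this class, was at 197 CPM in cKO and 121 CPM in WT cells, the opposite order to HSC/MPP-like cells. The difference between the ratios of these classes and of HSC/MPP-like cells was not tested, because each genotype is 1 library.

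In megakaryocyte-like cells (249 cKO and 143 WT cells) 13 of 27 genes were lower in cKO. Lower by at least 1.5-fold were 4 against 11.6% of all genes, and higher by at least 1.5-fold were 4 against 8.43% of all genes. The median was 0.07, against -0.07 for all genes, and -0.26 with the cKO clusters weighted to their WT shares. The single largest difference of all 41 genes in all classes was here. Isg15 had 681 UMIs in cKO and 15 in WT cells, or 123 CPM in cKO and 4.45 CPM in WT cells (4.74, interval 4.05 to 5.63). It came from few cells of 1 cluster, led by the platelet genes Ppbp, Clu, Clec1b and Myl9, where Isg15 had 661 UMIs in 162 cKO cells and 1 UMI in 67 WT cells, at median depths of 2974 UMIs per cell in cKO and 1646 in WT. In the other 3 megakaryocyte-like clusters it was at 1.65 to 8.15 CPM in cKO and 3.22 to 9.31 CPM in WT cells. Of the 41 genes, 17 were measured in the cluster led by Ppbp, and 3 of these were lower in cKO. Their median there was 0.55, and the summed ratio, which includes Isg15, was 0.84 (interval 0.65 to 1.04). The 10 cKO cells with most Isg15 held 63.3% of its UMIs in the class, and 1 cell held 110. Rsad2 (1.35, and -0.15 with WT cluster shares) was also higher, while Epsti1 (-1.52) and Parp14, an ADP-ribosyltransferase (-0.62), were lower. The Isg15 count also fed the level over all kept cells given above.

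The class with the highest level was sought over the classes with at least 50 cells in a library, which were not the same in both. In WT cells 17 of the 41 genes were highest in macrophage-like cells, 10 in T, NK and innate lymphoid-like cells and 7 in conventional dendritic-like cells. Some of these ranks are not settled, since the highest class overlapped the second within counting error. This held for Eif2ak2, Oas1a, Ifit1, Xaf1, Ddx58, Usp18, Herc6, Ifi47, Irf9, Trim30a, Ifi35 and Slfn2. In the cKO library, which had only 19 macrophage-like cells and so no value for them, 19 genes were highest in T, NK and innate lymphoid-like cells, 8 in stromal and endothelial-like cells and 5 in conventional dendritic-like cells. Many of the cKO ranks overlapped the second class in the same way, such as those of Ddx58, Dhx58, Ddx60, Irf7, Ifit2, Ifit3, Samd9l, Sp100, Stat2 and Irf9. The WT library had 152 macrophage-like cells, and their summed level of 3061 CPM was the highest of any class. Macrophage markers were also lower in several of the same classes. Summed over 10 markers they were at 10.7 CPM in cKO and 27.2 CPM in WT HSC/MPP-like cells, where 7 of 7 measured markers were lower in cKO and Cd5l was at 0 in cKO. In GMP-like cells they were at 19.6 CPM in cKO and 88.0 CPM in WT cells, with 7 of 7 lower and Cd5l at 0 in cKO. In erythroid progenitor-like cells they were at 62.9 CPM in cKO and 82.0 CPM in WT cells, with 8 of 8 lower and Cd5l at 0 in cKO. In monocyte-like cells they were at 15.4 CPM in cKO and 36.1 CPM in WT cells, with 6 of 7 lower and C1qc at 0 in cKO. Every cell with a UMI of a macrophage marker was then left out. This kept 584 cKO and 740 WT HSC/MPP-like cells, and 775 cKO and 384 WT GMP-like cells. It kept 1690 cKO and 918 WT erythroid progenitor-like cells, and 460 cKO and 462 WT monocyte-like cells. The median of the interferon genes was then -0.56 in HSC/MPP-like and -0.40 in GMP-like cells. It was -0.56 in erythroid progenitor-like and -0.51 in monocyte-like cells. A deeper cell is more likely to hold such a UMI, and RNA of other macrophage genes can remain in the cells kept. The part of macrophage RNA in the results was therefore not tested.

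The lower levels were also seen as a smaller share of cells with these genes. After each cell was thinned to 2000 UMIs, 39.1% of 9550 cKO cells had a UMI of at least 2 of the 41 genes, against 51.2% of 9633 WT cells, a ratio of 0.764 (interval 0.732 to 0.798). Left out as shallower were 1150 cKO and 2267 WT cells. In HSC/MPP-like cells the shares were 51.5% in cKO and 62.1% in WT, and for at least 5 genes 3.78% in cKO and 8.95% in WT. The shares were also lower in erythroid progenitor-like cells, at 25.5% in cKO and 36.6% in WT, in GMP-like cells, at 32.9% in cKO and 38.9% in WT, and in monocyte-like cells, at 47.8% in cKO and 60.1% in WT. Without thinning, 85.1% of cKO and 83.0% of WT cells had at least 2 of the genes, at the unequal depths of the libraries. Every class expresses some of the 41 genes, so no class gave a level of free RNA to set beside these shares. In stromal and endothelial-like cells the share, at 61.8% in cKO and 74.3% in WT, ran against the CPM. In T, NK and innate lymphoid-like cells, whose median ratio was positive, the share was 84.3% in cKO and 88.9% in WT. For at least 5 genes it was 31.5% in cKO and 28.6% in WT there. No order is read from the shares of these classes. The tenth of cells with most UMIs of these genes held 39.9% of them in cKO and 36.3% in WT.

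**Figure D5:**
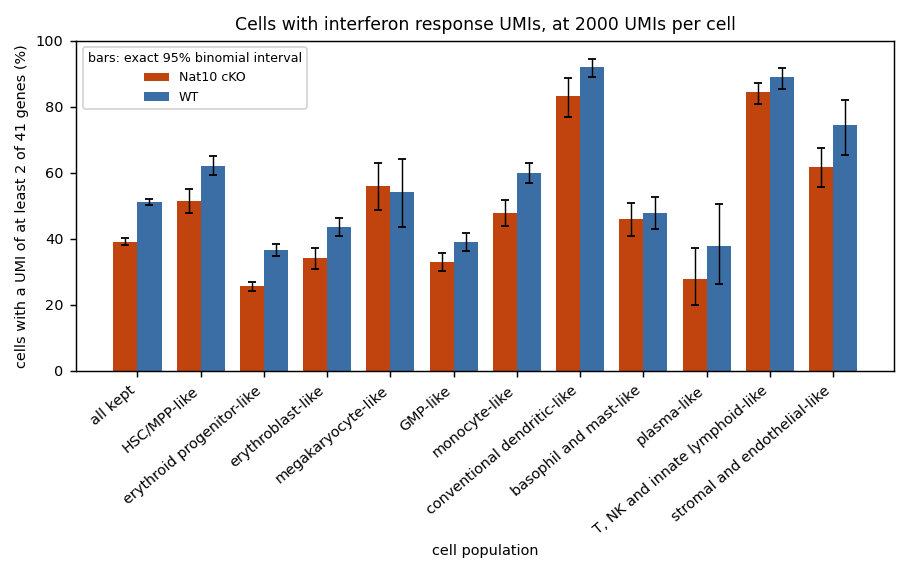
Share of cells, in percent, with a UMI of at least 2 of the 41 genes after thinning to 2000 UMIs per cell, in the cKO library (orange) and the WT library (blue), with exact 95% binomial intervals of counting error. Over all kept cells the share is 39.1% in cKO and 51.2% in WT; in megakaryocyte-like cells the bars are nearly level.

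Upstream of these genes, 40 of 42 further pathway genes were found by symbol. Over all kept cells 30 of 32 measured ones were lower in cKO, 6 of them by at least 1.5-fold (18.8%, against 13.1% of all genes), with a median of -0.25 against -0.10, where 61.3% of all genes were lower, and the median was -0.14 with WT cluster shares. Of the ligands, Ifnb1, Ifna2, Ifna4, Ifne, Ifnl2 and Ifnl3 had 0 UMIs in both libraries, which allows up to 0.0145 CPM in cKO and 0.0141 CPM in WT cells (exact upper bounds). Ifng, the type II ligand, was at 0.838 CPM in cKO and 1.21 CPM in WT cells (-0.53), and Ifnk had 18 UMIs in cKO and 23 in WT cells. Both type I receptor chains were lower over all cells. Ifnar1 was at 17.6 CPM in cKO and 21.1 CPM in WT cells (-0.26), and Ifnar2 at 70.5 CPM in cKO and 88.7 CPM in WT cells (-0.33). In HSC/MPP-like cells their ratios were -0.07 and -0.16, the first with an interval that spans 0, and the second was 0.0067 under TMM scaling and 0.085 relative to genes of like span.

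Among kinases Ikbke, which activates IRF3 and IRF7, had the lowest ratio (-1.13) and Jak1 the highest (-0.20, and 0.037 relative to genes of like span). Of the nucleic acid receptors and adaptors, Tlr9 (-2.12, on 11 UMIs in cKO and 51 in WT) was lowest and Mavs (-0.01), the adaptor of RIG-I, highest. Irf8, a factor of monocyte and dendritic development, was lowest of the factors outside the 41. It was at 81.8 CPM in cKO and 178 CPM in WT cells (-1.12 over all cells, and -0.78 in HSC/MPP-like cells). Irf3, which is not induced by interferon, was higher, at 0.21 over all cells and in HSC/MPP-like cells. Of the inhibitors, Adar, which edits double-stranded RNA, was lowest (-0.52 over all cells and -0.80 in HSC/MPP-like cells), and Socs1 highest over all cells (0.10, with an interval that spans 0).

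A further 68 interferon-induced genes outside the 41 gave a like picture. Over all kept cells 54 of 64 measured ones were lower in cKO, 23 of them by at least 1.5-fold (35.9%, against 13.1% of all genes), with a median of -0.47 against -0.10, and of -0.24 with every cell weighing alike. Ifi204, a DNA-binding protein of the Ifi200 family, had a ratio of -1.57, Mx1, a dynamin-like antiviral GTPase, -1.52, and Oas1g -1.50. The highest were Ifit1bl1 (0.57) and Gbp4 (0.19), both with intervals that span 0, and the chemokine gene Cxcl10 (0.28). In HSC/MPP-like cells 45 of 50 were lower, 19 of them by at least 1.5-fold (against 13.8% of all genes), with a median of -0.51 against -0.16. Mx2 (-1.49), Mx1 (-1.35) and Ifi209 (-1.29) were lowest there. Psmb8, a subunit of the immunoproteasome, ran the other way at 459 CPM in cKO and 294 CPM in WT HSC/MPP-like cells (0.64), as did its partner Psmb9 (0.32) and the lectin gene Lgals9 (0.16).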

How the data were processed

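The authors deposited raw count values, whole numbers of UMIs for each gene in each barcode, with no normalization. Per the submitters' processing notes they were made with Cell Ranger 7.1.0 and the mm39 build. The smallest deposited barcode held 500 UMIs.

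A barcode was kept if it held 1000 or more UMIs from 500 or more genes, with mitochondrial UMIs at or below 10%, and 539 cKO (4.80%) and 637 WT (5.08%) called doublets were removed with Scrublet in scanpy 1.11.5, at an assumed rate of 8%. Cells were clustered by the Leiden method (30 components of 2000 variable genes, 15 neighbours, resolution 1.5) with all interferon genes left out. Of 67 clusters, 58 were named "-like" after marker lists and 9 stayed unnamed (534 cKO and 1838 WT cells). The naming thresholds were set after the clusters had been seen. Classes needed 100 cells in each library to be compared. UMIs were summed per library and class, scaled to CPM, and 0.5 was added to each sum for the log2 ratio. Ratio intervals are exact conditional binomial, sums exact Poisson, shares Clopper-Pearson, all at 95%. PCR duplicates are removed by UMIs but no interval covers the spread between animals. edgeR 4.0.16 gave TMM factors as an alternative scaling only. Names in full went to the lowest and highest member of each role, all 3 factors, and the 2 lowest and 2 highest members of each other class; Oasl2, the RIG-I-like receptor genes, Herc6, Usp18, Ifit1, Ifitm3, Gbp2, Slfn5, Ifi27l2a, Sp100 and Epsti1 in HSC/MPP-like cells, Usp18 in T cells and Iigp1 in stromal cells were added after their values were seen. Ratio and thinning steps were checked on simulated data. The 41 genes and the gene and marker lists were chosen with earlier results of these data known, so their direction is no independent evidence. A result for 1 pathway gene is not reported here.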

Additional observations from a re-analysis of the deposited data

Results flagged for a closer look

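In 2 classes the interferon response genes pointed the opposite way to HSC/MPP-like cells, whose median log2 ratio was -0.62. The median was 0.23 in T, NK and innate lymphoid-like cells and 0.32 in stromal and endothelial-like cells, where the 2 clusters with enough cells gave medians of 0.09 and 0.15 and a floor of 200 UMIs gave 0.096. Isg15 in megakaryocyte-like cells, at 4.74, stood against -0.18 in HSC/MPP-like cells. With 1 library per genotype these differences between classes were not tested.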

How the results depend on the processing

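No paired analysis was possible because each genotype has 1 library, and for the same reason no library could be left out in turn. The sign of the members' median held in all 12 populations under TMM scaling, with every cell weighing alike, relative to genes of like span, without cells holding a macrophage marker and with no floor on UMIs, and in 11 of 12 with cKO clusters reweighted to the WT shares and with a floor of 200 UMIs. In stromal cells without macrophage-marker cells only 2 members were measured. It also held in 11 of 11 classes or populations with a stricter filter on cells or with doublets kept, and in 10 of 11 at Leiden resolution 1.0, at 2.5 and with interferon genes kept in the clustering. Each exception was the megakaryocyte class. The conventional dendritic class gave no median with doublets kept, at either other Leiden resolution or with interferon genes kept in the clustering. Its median thus had 8 alternatives, against 12 in HSC/MPP cells. The alternatives on span and macrophage markers, and the values cluster by cluster, were chosen after seeing the data. TMM moved HSC/MPP ratios by 0.17 and those over all kept cells by 0.10. Where values moved, the cause was not tested.

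Medians of several roles and smaller classes moved by over 1.5 times, and over the alternatives those of the classes ranged from -0.45 to -0.21 in erythroblast, -0.42 to -0.086 in basophil and mast, -0.42 to -0.022 in plasma, 0.14 to 0.25 in T, NK and innate lymphoid and 0.096 to 0.76 in stromal and endothelial cells. The median of the erythroid progenitor class was -0.35 under TMM scaling, and that over all kept cells -0.32 with every cell alike. The summed level under TMM scaling had a log2 ratio of -0.39 over all kept cells, -0.26 in HSC/MPP, -0.30 in erythroid progenitor and -0.049 in GMP cells. With every cell alike it was -0.33 over all kept cells and -0.26 in monocyte cells. With doublets kept it was -0.38 in HSC/MPP, -0.50 in erythroid progenitor, -0.19 in GMP and -0.38 in monocyte cells. With WT cluster shares it was -0.28 over all kept cells, -0.34 in HSC/MPP, -0.24 in GMP, -0.066 in monocyte, -0.0038 in megakaryocyte and 0.10 in T, NK and innate lymphoid cells, the last 2 reversed. Without macrophage-marker cells it was -0.50 over all kept cells, -0.50 in erythroid progenitor, -0.22 in GMP and -0.39 in monocyte cells. Without the most abundant member it was -0.50 in HSC/MPP, -0.28 in GMP and, reversed, 0.13 in T, NK and innate lymphoid cells.

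The ratio of shares of cells with at least 2 members was 0.847 over all kept cells, 0.782 in erythroid progenitor and 0.937 in monocyte cells at 4000 UMIs. Without thinning it was 1.02 over all kept cells, 1.02 in HSC/MPP, 1.01 in GMP, 0.975 in erythroid progenitor and 0.992 in monocyte cells. For at least 3 members it was 0.679 over all kept cells, 0.700 in HSC/MPP and 0.680 in monocyte cells.

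Single genes turned sign, among them some whose main ratio was far from 0 (Rsad2 in megakaryocyte, Ifi27l2a and Epsti1 in plasma, and Isg15 in basophil and mast cells). Ifitm3 in GMP cells was at -0.076 without macrophage-marker cells. In HSC/MPP cells Ifnar2 was at 0.0067 under TMM and 0.085 relative to genes of like span, and Ptpn6 at -0.017 at Leiden resolution 2.5. Over all kept cells Bst2 was at 0.024 under TMM and 0.12 with WT cluster shares, Iigp1 at -0.095 with WT shares and -0.37 without macrophage-marker cells, Isg15 at -0.15 with WT shares and -0.021 with doublets kept, and Jak1 at 0.037 relative to genes of like span. With doublets kept Isg15 in basophil and mast cells was at -0.15 and Bst2 in erythroid progenitor cells at -0.019. Rsad2 in megakaryocyte cells was at -0.15 with WT shares, Epsti1 in plasma cells at -0.86 without macrophage-marker cells, and Ifi27l2a in plasma cells at 0.19 with every cell alike.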

Other observations

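Interferon response genes also marked cells outside the progenitors. In a small erythroblast-like cluster of 39 cKO and 50 WT cells, Rsad2 was among the 10 genes that led the cluster, beside Tmcc2, Slfn14 and Bpgm. In the WT library Bst2 was highest in plasmacytoid dendritic-like cells, at 599 CPM, and Iigp1 in stromal and endothelial-like cells, at 121 CPM. In the cKO library Ifi27l2a was at 156 CPM in pro-B and pre-B-like cells, which overlapped the 122 CPM of conventional dendritic-like cells within counting error.

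Each genotype is 1 library, so a difference between mice, days or droplet runs cannot be told apart from genotype. Classes were rebuilt from markers, and monocyte markers in HSC/MPP-like cells summed to 209 CPM in cKO and 378 CPM in WT cells, and their part in the results was not tested. Lowly counted genes such as Ifit3 and Ifi44 rest on few UMIs.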
